A study of Mus musculus with 15 samples.

Results

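The genes examined were Ttr, Clu, Apoe, Ptgds, Enpp2 and Apod, 6 of the 46078 genes in the deposited count table. They were chosen by symbol, as secreted proteins that carry or make lipids and other small hydrophobic molecules, and each symbol matched 1 row. The tissue was the retinal pigment epithelium (RPE) of female mice at postnatal day 14, with RNA taken from 2 hours after light onset, and expression was measured by sequencing of poly-A RNA. The 15 libraries fall into 4 genotype groups. Mertk WT (n = 4) carried wild-type Mertk, a receptor tyrosine kinase used by the RPE to take up outer segment tips that photoreceptors shed. Mertk KO (n = 4) was labelled a knockout of that gene. Bai1 Tg neg (n = 4) and Bai1 Tg pos (n = 3) both carried wild-type Mertk and were labelled as lacking or carrying a transgene for Bai1, an adhesion receptor for phosphatidylserine on dying cells whose gene symbol is Adgrb1. Every library has the same strain label, a mixture of c57Bl/6J with B6;129-Mertktm1Grl/J. The labels do not state the promoter of the transgene, the exons removed from Mertk or the number of animals behind a library. The p-values below therefore measure only how these libraries vary, and part of that may be technical.

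The RPE is a single layer of pigmented cells between the photoreceptors and the blood supply of the choroid. It takes up retinol from the blood, returns visual chromophore to the photoreceptors and handles the lipid of the outer segments that it digests. Transthyretin (Ttr) binds the retinol-binding protein Rbp4 and thyroid hormone. Clusterin (Clu) is an extracellular chaperone found in lipoprotein particles, and apolipoprotein E (Apoe) is the ligand by which lipoproteins bind receptors of the LDL receptor family. Ptgds is both the lipocalin-type prostaglandin D synthase and a carrier of small lipophilic molecules. Enpp2 encodes autotaxin, the secreted enzyme that makes lysophosphatidic acid. Apod is, like Ptgds, a member of the lipocalin family.

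Libraries held 9591129 to 20024507 assigned counts, and TMM factors, which correct for the makeup of a library, lay between 0.976 and 1.03. RPE markers were high throughout: 16 of 17 were at or above a mean of 1 CPM (counts scaled to a common library size with TMM) and their summed level was 38844 to 44458 CPM. The most abundant were the opsin-family protein Rgr and the retinoid isomerase Rpe65. The exception was Best1, an RPE chloride channel, at 0 to 1.81 CPM. Summed rod photoreceptor markers were 2258 to 5502 CPM in the Mertk libraries and 1296 to 2233 CPM in the Bai1 libraries, with 18 of 18 rod markers detected. Macrophage markers other than Csf1r and Cd68 were near 0. The 10 markers of lens and cornea summed to 3.83 to 11.3 CPM, with 1 above a mean of 1 CPM. Of these 10, 3 were at 0 in every library: Krt5, Krt14 and Crybb2. As a check of the labels, the Mertk KO libraries held Mertk at 155 to 195.9 CPM, and the Mertk WT libraries held it at 233.3 to 261.9 CPM. Adgrb1 was at 166.2 to 169.9 CPM in Bai1 Tg pos, but the library labelled Bai1 Tg neg 4 also held it, at 143.5 CPM (2875 counts), against its label. Results for that comparison are given with and without it.

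Together the 6 genes held 6.05% ± 0.357 of all assigned counts (SD, n = 15), and between 5.49% and 6.66% in single libraries. The mean was 6.26% ± 0.387 in Mertk WT, 6.19% ± 0.345 in Mertk KO, 5.88% ± 0.229 in Bai1 Tg neg and 5.78% ± 0.339 in Bai1 Tg pos. The lowest library was Bai1 Tg pos 2 and the highest Mertk WT 4, and the groups overlapped. Nearly all of it came from 5 genes. Ttr held 2.43% ± 0.168 of counts, Ptgds 1.59% ± 0.169, Clu 1.00% ± 0.072, Apoe 0.585% ± 0.0949 and Enpp2 0.441% ± 0.0931, while Apod gave 17 counts in all 15 libraries together.

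**Figure D1:**
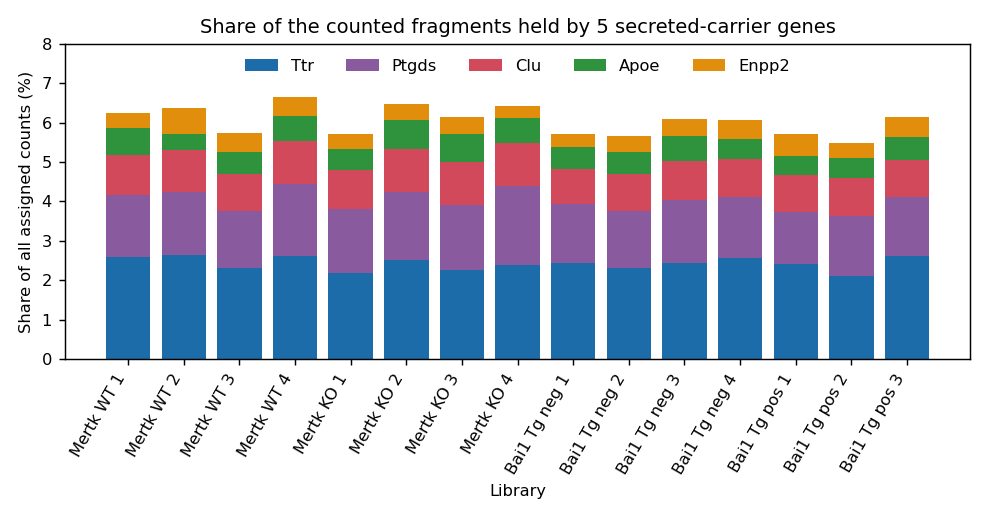
Share of all assigned counts (y axis, percent) in each of the 15 libraries (x axis), stacked by gene; Apod is too low to draw. The stacks reach 5.49% to 6.66%, with Ttr and Ptgds as the largest layers in each library.

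Ranked by mean share among all genes, Ttr was at place 1, Ptgds at 2, Clu at 4, Apoe at 10 and Enpp2 at 16. The genes between them were Rgr (place 3), the cysteine protease inhibitor Cst3 (5), the lysosomal protease Ctsd (6), the mitochondrial cytochrome oxidase subunit mt-Co1 (7), the melanin enzyme Dct (8) and the saposin precursor Psap (9). Ttr and Ptgds kept places 1 and 2 in each of the 15 libraries. Clu was at place 4 or 5, Apoe moved between 7 and 17, and Enpp2 between 9 and 27.

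A share of counts favours long transcripts, so levels of different genes were compared as FPKM, which is CPM divided by the kilobases of exon. On that scale Ttr was at 19911 ± 1448 FPKM (SD, n = 15), 2.06 times Ptgds at 9670 ± 1045 FPKM. Apoe followed at a mean of 2955 FPKM and Clu at 2909 ± 233 FPKM. Enpp2 was at 1270 ± 275 FPKM and Apod at 0.0275 ± 0.0412 FPKM. The ranges of Apoe (2007 to 3847 FPKM) and Clu (2492 to 3237 FPKM) overlapped, and Apoe was above Clu in 9 of 15 libraries, so their order does not differ beyond their spread. The ranges of the other neighbours in the order did not overlap. Without the scaling by length Clu stood above Apoe in every library, its exons spanning 3438 bases against 1980. Among all genes the places by mean FPKM were 1 for Ttr, 2 for Ptgds, 9 for Apoe, 10 for Clu, 23 for Enpp2 and 20337 for Apod.

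Ttr lies on chromosome 18 from 20665250 to 20674324 (plus strand) in the GRCm38 coordinates of the deposited table, with 4 exon blocks of 1219 bases in all. Its level was 26132, 26570, 23371 and 26049 CPM in Mertk WT 1 to 4 and 21722, 25595, 23117 and 23743 CPM in Mertk KO 1 to 4. In Bai1 Tg neg 1 to 4 it was 23735, 22819, 24278 and 25682 CPM, and in Bai1 Tg pos 1 to 3 it was 24204, 20738 and 26311 CPM. All 4 ranges overlapped, and the highest library was only 1.28 times the lowest. Counting error was far smaller than these differences: in Mertk WT 1 the share was 2.60% with an exact Clopper-Pearson 95% interval of 2.591% to 2.607%. An 11-base stretch of Ttr exon (0.902%) is shared with Gm16090 on the opposite strand, which held 399 counts in all and cannot move these values by much.

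Clu lies on chromosome 14 from 65968483 to 65981548 (plus strand), with 14 exon blocks. Its level was 10272, 10914, 9503 and 11034 CPM in Mertk WT 1 to 4 and 9833, 11015, 11128 and 10712 CPM in Mertk KO 1 to 4. In Bai1 Tg neg 1 to 4 it was 8566, 9204, 9953 and 9763 CPM, and in Bai1 Tg pos 1 to 3 it was 9300, 9389 and 9436 CPM. The 3 Bai1 Tg pos libraries were close together. The lowest level was that of Bai1 Tg neg 1 and the highest that of Mertk KO 3.

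Apoe lies on chromosome 7 from 19696109 to 19699166 (minus strand), with 6 exon blocks. Its level was 6907, 3973, 5835 and 6323 CPM in Mertk WT 1 to 4 and 5112, 7618, 7334 and 6361 CPM in Mertk KO 1 to 4. In Bai1 Tg neg 1 to 4 it was 5490, 5660, 6230 and 5037 CPM, and in Bai1 Tg pos 1 to 3 it was 4757, 5120 and 6018 CPM. All 4 ranges overlapped. The low value of Mertk WT 2 and the high values of Mertk KO 2 and 3 set a range of 1.92 times between the extremes.

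Enpp2 lies on chromosome 15 from 54838898 to 54920146 (minus strand), with 27 exon blocks. Its level was 3792, 6793, 4742 and 4842 CPM in Mertk WT 1 to 4 and 4000, 4156, 4352 and 2922 CPM in Mertk KO 1 to 4. In Bai1 Tg neg 1 to 4 it was 3231, 3872, 4401 and 4701 CPM, and in Bai1 Tg pos 1 to 3 it was 5518, 3736 and 5114 CPM. Mertk WT 2, the lowest library for Apoe, was the highest for Enpp2, and Mertk KO 4 was the lowest, 2.32 times below it. A stretch of 348 bases of Enpp2 exon is identical to the transcript of Gm26684, whose row held 32 counts in all. That count does not show whether fragments of Enpp2 from this stretch went uncounted, which was not tested.

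Ptgds lies on chromosome 2 from 25466709 to 25470046 (minus strand), with 7 exon blocks. Its level was 15752, 16167, 14367 and 18241 CPM in Mertk WT 1 to 4 and 16200, 17690, 17009 and 19950 CPM in Mertk KO 1 to 4. In Bai1 Tg neg 1 to 4 it was 14532, 14549, 16007 and 15372 CPM, and in Bai1 Tg pos 1 to 3 it was 13175, 15216 and 14950 CPM. Mertk KO 4 was the highest library and Bai1 Tg pos 1 the lowest.

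Apod, the other lipocalin, was at the opposite end of the scale. It lies on chromosome 16 from 31296192 to 31314808 (minus strand), with 5 exon blocks. It gave 0, 4, 1 and 2 counts in Mertk WT 1 to 4, 4, 0, 0 and 1 counts in Mertk KO 1 to 4, and 0, 5 and 0 counts in Bai1 Tg pos 1 to 3. All 4 Bai1 Tg neg libraries were at 0 counts, which at 3 counts allows a level of up to 0.15 to 0.231 CPM per library. It was at 0 in 9 of 15 libraries and did not pass the filter on low counts, so it entered no test, and a difference between groups was not detectable at this depth.

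The promoter windows of Apod, Ptgds and Apoe, from RefSeq on GRCm38.p6, are shown as the start regions of a lipocalin with almost no counts, of a lipocalin at place 2 by share, and of the member whose level varied with the GC measure of the libraries (described below). Each runs 5′ to 3′ on the minus strand from 250 bases before to 50 bases after a RefSeq start. That start was 297 bases from the deposited gene start for Ptgds, 22 for Apoe and 0 for Apod. The Ptgds window therefore lies wholly inside the deposited gene and not upstream of it. The table used held no window for Ttr, Clu and Enpp2. Capitals mark the 1 match to the motifs searched on both strands: TAATCC, bound by OTX factors of the RPE, CATGTG and CACGTG, E-boxes of the kind that MITF binds, and TATAAA, the core of the TATA box.
Apod chr16:31314759-31315058: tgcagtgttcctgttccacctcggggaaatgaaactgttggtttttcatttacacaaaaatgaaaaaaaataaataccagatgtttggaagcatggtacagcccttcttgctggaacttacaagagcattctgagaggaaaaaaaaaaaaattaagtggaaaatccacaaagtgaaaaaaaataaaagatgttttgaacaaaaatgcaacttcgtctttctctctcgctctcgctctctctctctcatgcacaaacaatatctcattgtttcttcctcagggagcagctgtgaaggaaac
Ptgds chr2:25469700-25469999: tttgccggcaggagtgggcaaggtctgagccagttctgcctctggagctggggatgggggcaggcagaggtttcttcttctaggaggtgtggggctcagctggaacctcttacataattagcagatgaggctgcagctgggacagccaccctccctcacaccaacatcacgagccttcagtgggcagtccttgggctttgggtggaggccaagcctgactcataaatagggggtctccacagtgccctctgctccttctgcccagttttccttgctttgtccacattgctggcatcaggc
Apoe chr7:19699139-19699438: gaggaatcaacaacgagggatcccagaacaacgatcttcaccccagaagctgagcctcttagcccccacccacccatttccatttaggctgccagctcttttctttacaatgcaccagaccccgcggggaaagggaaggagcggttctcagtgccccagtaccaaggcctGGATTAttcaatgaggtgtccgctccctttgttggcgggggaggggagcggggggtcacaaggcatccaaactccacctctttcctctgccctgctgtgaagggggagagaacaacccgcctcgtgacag
The Apoe window holds 1 match to TAATCC, read as GGATTA on the strand shown, a motif found in 7.06% of the 32851 windows in the table. No match to the other 3 was found in these windows, against 14.2% of all windows with CATGTG, 7.15% with CACGTG and 13.6% with TATAAA. A match is a description of the letters and not a binding site. The Apod window was 37.3% G and C, against 57.7% for both others.

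**Figure D2:**
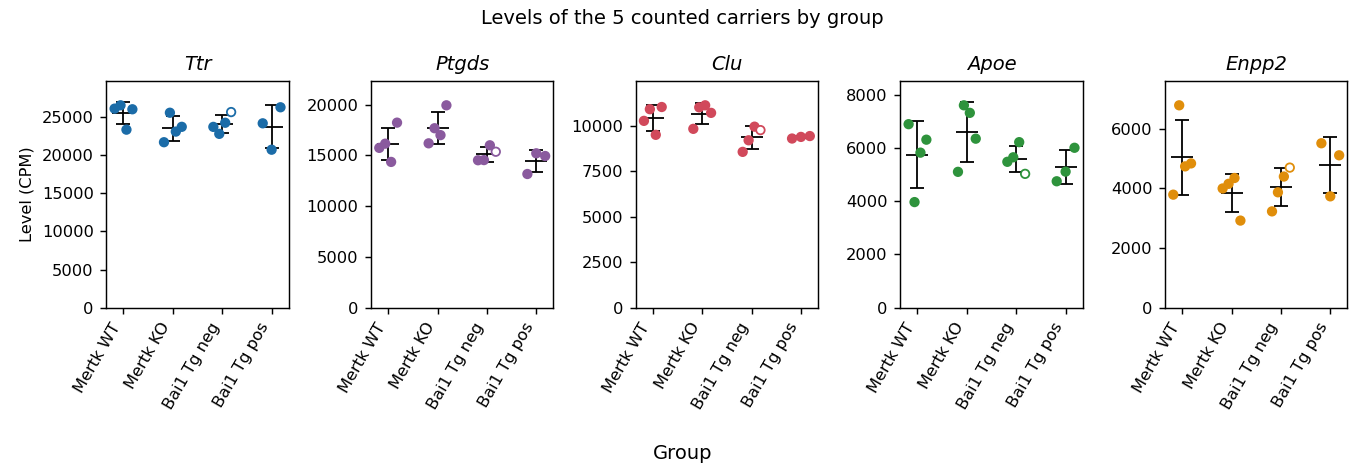
Level in CPM (y axis, from 0) of 5 genes in the 4 groups (x axis), each point being a library and the black bars giving mean and SD; Bai1 Tg neg 4 is drawn open. Apoe spans 3973 to 7618 CPM and Enpp2 2922 to 6793 CPM, a wider relative range than the other 3 genes have over all libraries; in Bai1 Tg pos Ttr, at 20738 to 26311 CPM, spreads as much as Apoe.

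The genes differed in how steady they were between libraries of the same group. Steadiness was taken as the SD of log2 CPM within groups, pooled over the 4 groups (11 residual degrees of freedom), and set beside the 1924 genes with a mean of at least 100 CPM, whose median SD was 0.114. Clu had an SD of 0.084, and 21.3% of those genes were steadier. Ttr had an SD of 0.107 (42.9% steadier) and Ptgds one of 0.116 (52.8% steadier), so both sat near the middle. Apoe had an SD of 0.249 (92.9% steadier) and Enpp2 one of 0.288 (94.8% steadier), among the least steady genes of this abundance. Counting error accounts for an SD of only 0.0024 to 0.0057 for these genes. Over all 15 libraries, with the groups not set apart, the median SD of genes was 0.122. There Clu had 0.116 (44.0% steadier), Ttr 0.107 (35.9%) and Ptgds 0.152 (68.3%). Apoe had 0.250 (91.6%) and Enpp2 0.303 (94.7%).

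Apoe and Enpp2 lay above the median spread of genes in each of the 4 groups. Apoe had a within-group SD of 0.351 in Mertk WT, 0.26 in Mertk KO, 0.127 in Bai1 Tg neg and 0.174 in Bai1 Tg pos. Enpp2 had 0.347, 0.261, 0.238 and 0.298 in the same order. The median over genes of at least 100 CPM was 0.13, 0.103, 0.0788 and 0.102. Within single groups the order of the members could differ. In Bai1 Tg pos, with 3 libraries, Ttr had an SD of 0.174, as large as that of Apoe, while Clu had the smallest value, 0.0106.

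The pair of members whose ratio was steadiest was Clu and Ptgds, with an SD of their log2 ratio of 0.0916 over the 15 libraries, among 10 pairs. The pair with the least steady ratio was Apoe and Enpp2, at 0.473, and at 0.352 without Mertk WT 2. Those levels went opposite ways in that library: Apoe was 0.54 below and Enpp2 0.65 above its mean over all libraries, in log2 CPM.

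The level of Apoe varied with the level of GC-rich genes relative to GC-poor genes in a library. For each library, the deviation of log2 CPM from the 15-library mean was taken over genes of at least 10 CPM, and the median for the 876 genes of highest transcript GC content (57.7% or more) was set against that for the 876 of lowest (41.6% or less). The difference was -0.56 in Mertk WT 2, where Apoe was lowest. It was 0.41 in Mertk KO 3 and 0.30 in Mertk KO 2, where Apoe was 0.35 and 0.40 above its mean. In Mertk WT 1 and Mertk KO 4 it was 0.33 and 0.28, with Apoe only 0.26 and 0.14 above its mean. In Mertk KO 1 it was -0.075, with Apoe at -0.18 from its mean. The cause of this variation was not tested. Transcripts of Apoe are 59.5% G and C, above 95.3% of those genes. The values are 56.4% for Ptgds, 55.6% for Clu, 47.8% for Apod, 46.5% for Ttr and 44.9% for Enpp2.

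After a correction for transcript GC content, added after the data were seen, the within-group SD of Apoe was 0.115 in place of 0.249, and 67.3% of genes were steadier. For Enpp2 it was 0.27 in place of 0.288, with 95.3% steadier. The corrected SD was 0.12 for Ttr, 0.0971 for Clu and 0.123 for Ptgds, each larger than before, while the median gene went from 0.114 to 0.0979. With the correction the share of steadier genes was 70.8% for Ttr, 48.8% for Clu and 72.5% for Ptgds. The steady rank of Clu within groups and the unsteady rank of Apoe thus hold for the values scaled by TMM and not for the corrected ones. Enpp2 was among the least steady genes on both.

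**Figure D3:**
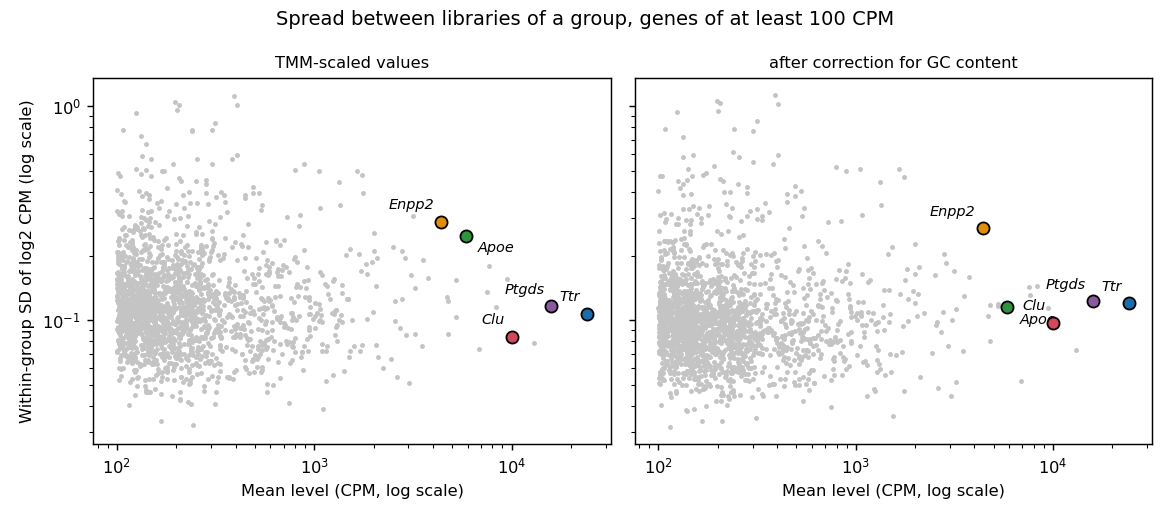
Within-group SD of log2 CPM (y axis, log scale) against the mean level in CPM (x axis, log scale) for 1924 genes, in grey, and the 5 members, in colour, before (left) and after (right) correction for GC content. Apoe falls from 0.249 to 0.115, and Enpp2 stays near the top at 0.288 and 0.27.

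**Figure D4:**
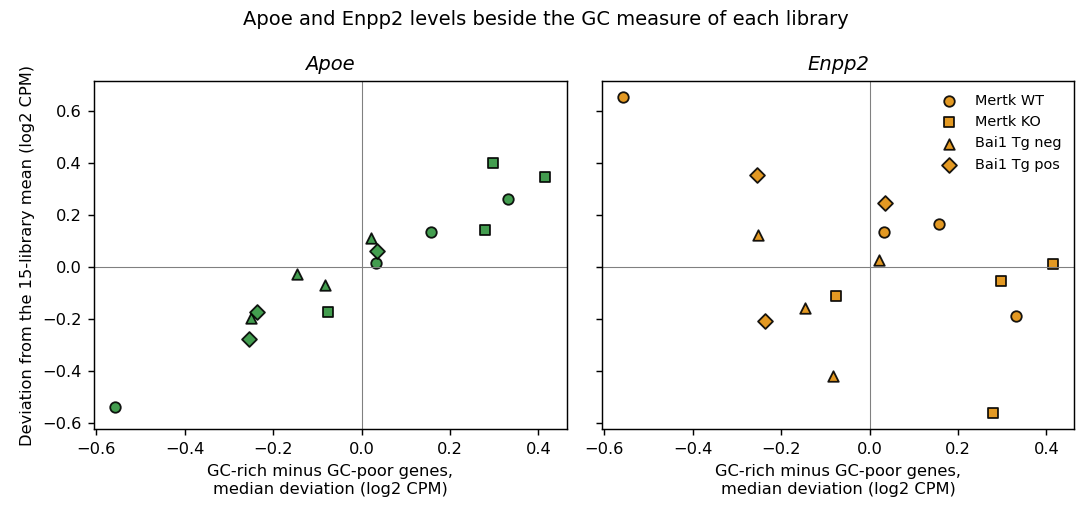
Deviation of Apoe (left) and Enpp2 (right) from the 15-library mean in log2 CPM (y axis) against the difference between GC-rich and GC-poor genes in the same library (x axis, log2 CPM), with 1 point per library and a symbol per group. Apoe rises along the axis from Mertk WT 2 at the lower left; the points of Enpp2 scatter, with Mertk WT 2 highest.

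The genes whose level stayed in the most constant ratio to each member were listed among 3975 genes of at least 50 CPM, by the SD of the log2 ratio over the 15 libraries. For Apoe these were Ltbp3, a binding protein of latent TGF-beta (SD of the ratio 0.0552), the mitochondrial outer membrane protein Tspo (0.0593) and the complex I subunit Ndufa13 (0.0634). Their transcripts are also rich in G and C, at 58.3%, 58.8% and 60.4%, against 59.5% for Apoe. For Clu they were the lysosomal membrane protein Glmp (0.0466), the lectin Os9 of endoplasmic reticulum quality control (0.0589) and Psap (0.0629). For Ttr they were the autophagy protein Becn1 (0.0716), the kinase Limk2 (0.0729) and the tubulin Tuba1b (0.0733).

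For Ptgds the nearest genes were the lactate dehydrogenase subunit Ldhb (0.0688), the Golgi tether subunit Cog1 (0.0746) and the inositol pyrophosphate kinase Ppip5k1 (0.0772). For Enpp2 they were Vat1l (0.173), the potassium channel Kcnj13 of the RPE (0.176) and the kinase Dclk1 (0.184), with transcripts of 44.9%, 46.9% and 46.3% G and C, against 44.9% for Enpp2. By this SD no gene followed Enpp2 as closely as others followed the rest. The SD of a ratio also holds the member's own spread. Over the 15 libraries that spread was 0.303 for Enpp2, 0.25 for Apoe and 0.107 for Ttr. The median ratio SD over all genes listed was 0.326 for Enpp2, 0.279 for Apoe and 0.168 for Ttr.

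The comparison of Mertk KO with Mertk WT asks which levels differ in the libraries labelled as lacking the phagocytic receptor. Counts summed over all exons of Mertk, lower but far from 0 in those libraries, are a limited check of that label. None of the 5 tested members passed an adjusted p of 0.05 (edgeR quasi-likelihood test, Benjamini-Hochberg over 13447 genes), and none had an unadjusted p below it in edgeR, against 5.58% of all genes. DESeq2 called 0 of the 5, with 1, Enpp2, at an unadjusted p below 0.05, against 3.96% of all genes in DESeq2. Over all genes tested, 0.223% passed in edgeR. No member's groups separated completely, against 3.52% of all genes tested. The largest difference was that of Enpp2, whose mean was 3858 ± 640.2 CPM (SD, n = 4) in the knockout group, against 5042 ± 1259 CPM (n = 4) in Mertk WT. Its log2 fold change was -0.39 (SE 0.184, 95% interval -0.81 to 0.029, edgeR adjusted p = 0.893). On leaving out single libraries that value ran from -0.50 (without Mertk WT 1) to -0.22 (without Mertk WT 2).

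The mean of Apoe was 6606 ± 1132 CPM in the knockout group, against 5760 ± 1269 CPM in Mertk WT, which gave a log2 fold change of 0.19 (SE 0.189, interval -0.24 to 0.62, edgeR adjusted p = 0.914). It ran from 0.046 (without Mertk WT 2) to 0.30 (without Mertk KO 1), and was 0.053 with the correction for GC content. The interval for Ttr ran from -17.3% to 2.03% in Mertk KO relative to Mertk WT, with a log2 fold change of -0.12. Clu differed by 0.028 (-8.37% to 13.4%) and Ptgds by 0.13 (-3.95% to 24.5%). Ptgds was at 0.038 with the GC correction, 0.069 without Mertk KO 4 and 0.20 without Mertk WT 4. Ttr was at -0.080 without Mertk KO 1. These intervals leave room for differences of such sizes, which the tests do not exclude. The 18 rod markers had a median log2 fold change of -0.63 here, 17 of them below 0 and none passing, beside -0.00097 over all genes tested. With their mean level as a covariate, Enpp2 went to -0.25, Apoe to 0.097, Ptgds to 0.083, Ttr to -0.14 and Clu to 0.015, with none passing.

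Adding the Bai1 transgene was examined in Bai1 Tg pos against Bai1 Tg neg. Again 0 of 5 members passed the edgeR test, at an adjusted or unadjusted p of 0.05 (5.18% of all genes at the latter). DESeq2 called 0, with 0 at an unadjusted p below 0.05, against 4.23% of all genes in DESeq2. Of 13855 genes tested in edgeR, 0.0144% passed, and 6.2% had groups that did not overlap, a state that no member was in. The mean of Enpp2 was 4789 ± 935 CPM with the transgene (n = 3) and 4051 ± 645 CPM without it (n = 4) by label, for a log2 fold change of 0.25 (SE 0.17, interval -0.16 to 0.65, edgeR adjusted p = 0.958). Apoe differed by -0.077 (interval -16.7% to 7.85%) and Ptgds by -0.061 (-13.5% to 6.21%). Ttr differed by -0.019 (-12.4% to 11.1%) and Clu by 0.0047 (interval of the log2 fold change -0.14 to 0.15). Without the library labelled Bai1 Tg neg 4 the log2 fold changes were 0.33 for Enpp2, -0.12 for Apoe, -0.052 for Ptgds, 0.013 for Ttr and 0.026 for Clu, and none passed. Bai1 Tg pos 1 also weighed on these values: without it they were 0.13 for Enpp2, -0.0087 for Apoe and -0.0029 for Ptgds. Over the 7 libraries left out in turn, Enpp2 ran from 0.13 to 0.40, Apoe from -0.18 to -0.0087 and Ptgds from -0.097 to -0.0029. The rod markers had a median log2 fold change of 1.07, 17 of 18 above 0 and none passing, beside -0.00050 over all genes. With their level as a covariate, Enpp2 was at 0.26, Apoe at -0.062, Ptgds at -0.086, Ttr at 0.031 and Clu at -0.024.

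**Figure D5:**
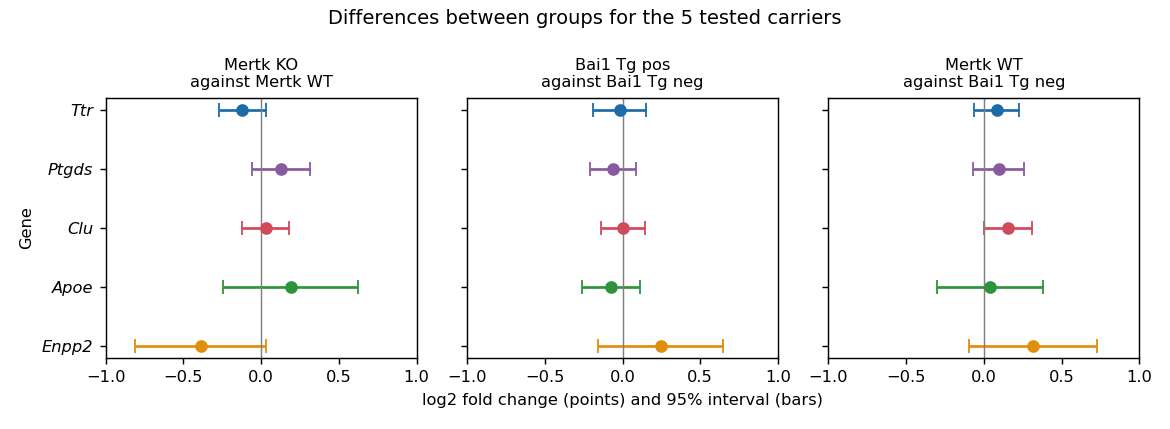
Log2 fold change (x axis, points) with its 95% interval (bars) for the 5 tested members (y axis) in 3 comparisons. All 15 intervals include 0; those of Enpp2 and Apoe are the widest in the comparison of Mertk KO with Mertk WT.

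Both control groups, Mertk WT and Bai1 Tg neg, carry wild-type Mertk and no transgene by label. They differ in the first of the tag numbers in the descriptions, 17 or 21 for the Mertk libraries and 12 for the Bai1 libraries, so line and tag cannot be told apart. In edgeR 0 of 5 members passed and 0 had an unadjusted p below 0.05, while 0.431% of 13459 genes passed and 7.99% had such an unadjusted p. DESeq2 called 0, with 2, Clu and Enpp2, at an unadjusted p below 0.05, against 5.71% of all genes in DESeq2. No member's groups separated completely, against 5.74% of genes. Clu was closest, with means of 10431 ± 703 CPM for Mertk WT and 9372 ± 624 CPM for Bai1 Tg neg and a log2 fold change of 0.15 (SE 0.0721, interval -0.0011 to 0.31, edgeR adjusted p = 0.626). Enpp2 differed by 0.32 (SE 0.181, edgeR adjusted p = 0.743), and by 0.14 without Mertk WT 2. Ptgds differed by 0.094 (0.028 without Mertk WT 4, 0.14 without Mertk WT 3) and Ttr by 0.081 (0.053 without Bai1 Tg neg 2). Apoe differed by 0.040, a value that ran from -0.059 (without Mertk WT 1) to 0.18 (without Mertk WT 2) on leaving out libraries. Without the library labelled Bai1 Tg neg 4, 28 genes passed in place of 58, and the members were at 0.39 for Enpp2, 0.17 for Clu, 0.11 for Ttr, 0.10 for Ptgds and -0.0090 for Apoe, with none passing.

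Rod RNA differed most in this comparison of the 3. The median log2 fold change of the 18 rod markers was 3.58 in Mertk WT against Bai1 Tg neg, beside -0.0021 over all genes tested, and 1 of the 18, the disc rim protein Rom1, passed. With the mean rod marker level as a covariate, Enpp2 went from 0.32 to -0.50 and Apoe from 0.040 to 0.42. Clu went from 0.15 to 0.068, Ptgds from 0.094 to 0.13 and Ttr from 0.081 to 0.10, with no member passing. Mean rod marker levels did not overlap between the groups (5.10 to 7.03 log2 CPM in Mertk WT, 2.24 to 4.04 in Bai1 Tg neg). This covariate therefore cannot separate rod RNA from group, and the part of rod RNA in these levels was not tested. Fewer cells of a type and less RNA per cell cannot be told apart in such bulk samples.

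A single test over all 4 groups gave the same count. Of the members, 0 of 5 passed the edgeR test adjusted over 14520 genes, of which 1.26% passed, and DESeq2 called 0. The unadjusted p was below 0.05 for 2 members, Ptgds and Clu, in edgeR and in DESeq2. It was so for 12.9% of all genes in edgeR and 9.07% in DESeq2. Ptgds had an edgeR adjusted p = 0.221, with means of 17712 CPM in Mertk KO, 16132 in Mertk WT, 15115 in Bai1 Tg neg and 14447 in Bai1 Tg pos. Clu had an edgeR adjusted p = 0.27, with means of 10672, 10431, 9372 and 9375 CPM in that order. Mertk KO and Bai1 Tg neg did not overlap for Ptgds, as for 9.75% of all genes tested. Mertk KO and Bai1 Tg pos did not overlap for Ptgds and Clu, as for 13.5% of genes. With the GC correction the edgeR adjusted p was 0.731 for Ptgds and 0.706 for Clu. Without it, the other adjusted p-values were 0.618 for Enpp2, 0.74 for Apoe and 0.783 for Ttr in edgeR. The GC measure itself went with group. It was -0.075 to 0.41 in Mertk KO, -0.25 to 0.022 in Bai1 Tg neg and -0.25 to 0.035 in Bai1 Tg pos. The correction can therefore also remove a difference between groups, and GC content and group were not told apart.

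Genes that work with these carriers were read from 8 lists of 136 symbols in all, 135 of them in the table. None passed the edgeR test in Mertk KO against Mertk WT, where 83 were tested and 6 (7.23%) had an unadjusted p below 0.05, against 5.58% of all genes. None passed in Bai1 Tg pos against Bai1 Tg neg (86 tested, 7 or 8.14% below 0.05, against 5.18%) or in Mertk WT against Bai1 Tg neg (82 tested, 16 or 19.5% below 0.05, against 7.99%). DESeq2 called 0, 0 and 2 of the listed genes, the last being Plppr3 and Rbp3, beside 77, 26 and 249 of all genes. In the test over the 4 groups 1 of 88 passed, and 15 (17.0%) had an unadjusted p below 0.05, against 12.9% of all genes. It was Rbp3, the retinoid-binding protein of the space between photoreceptors and RPE and a product of photoreceptors, at 126 ± 77.1 CPM in Mertk WT, 74.5 ± 15.9 in Mertk KO, 8.16 ± 6.34 in Bai1 Tg neg and 19.2 ± 18.2 in Bai1 Tg pos (edgeR adjusted p = 0.0484). The rod markers were high in the same groups, and their part in the level of Rbp3 was not tested.

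Among the partners of Ttr, 7 of the 11 genes in the table were tested. Rlbp1, the retinaldehyde-binding protein of the RPE, was at 2165 FPKM (1839 to 2482) on average over the libraries. Rbp4, the plasma carrier of retinol to which Ttr binds, was at 4.00 FPKM, against 19911 FPKM for Ttr. Of the apolipoproteins other than Apoe, only 3 of 15 were tested: the mitochondrial proteins Apoo and Apool, at 11.7 and 3.86 FPKM, and Apoc3 at 0.937 FPKM. Apoa1 and Apob, the main proteins of HDL and LDL, stood at 0.0904 and 0.00112 FPKM.

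Receptors for these particles were present at lower levels. Of 14 receptor genes 13 were tested, led by the endocytic receptor Lrp1 at 103 FPKM (84.2 to 131) and the receptor-associated chaperone Lrpap1 at 58.4 FPKM (52.7 to 65.6). Of 18 genes of lipid efflux and lipoprotein remodelling 15 were tested. The highest were the phospholipid transfer protein Pltp at 580 FPKM (472 to 712) and the lysosomal cholesterol carrier Npc2 at 218 FPKM (193 to 238).

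Beside Ptgds, of 15 other lipocalins 2 passed the filter on low counts and were tested, C8g at 4.45 FPKM and Rbp4. In prostaglandin synthesis the enzymes Ptges, for prostaglandin E, and Ptgis, for prostacyclin, stood at 84.1 FPKM (74.8 to 98.4) and 61 FPKM (39.8 to 92), far below Ptgds at 9670 FPKM. In the autotaxin list the relative Enpp5 was at 89.6 FPKM (78.6 to 103) and the acyltransferase Lpcat3 at 21.2 FPKM (18.1 to 24.7), against 1270 FPKM for Enpp2. Of the extracellular chaperones and protease inhibitors, Cst3 at 7465 FPKM (6392 to 8752) and Psap at 2496 FPKM (2223 to 2705) were in the range of the members.

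The ciliary and iris epithelium and the choroid plexus also make Ttr, Enpp2 and Clu, so their markers were read beside these values. Of 12 such markers 8 were at or above a mean of 1 CPM, led by the transporter Slc4a5 at 3039 CPM and Clic6 at 1709 CPM, and the summed level was 5999 to 6772 CPM in each library. Lower in the same list were Kl at 0 to 2.84 CPM and Kcne2 at 5.65 to 14.3 CPM, both picked once their values were known. The summed level was 6617 to 6772 CPM in Mertk WT, 5999 to 6365 in Mertk KO, 6030 to 6471 in Bai1 Tg neg and 6318 to 6549 in Bai1 Tg pos. Mertk WT lay above the other groups, and no marker of the list passed in any of the 3 comparisons of groups. Whether the RNA of these markers came from such cells or from the RPE itself was not tested. The part of such cells in the levels of the members was not tested either.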

How the data were processed

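The deposited data are 1 table with the authors' raw counts of fragments for each gene, its exon coordinates and its length. Per the file headers, counts were made with featureCounts 1.5.0 from read pairs of which both ends mapped, summed over exons per gene, with no strand option. STAR and GRCm38 are named as aligner and genome build in the submitters' processing notes, and no annotation release is named in these sources. The deposited gene length, in bases, is a score that served only for FPKM. Per the labels' protocols, libraries were made from poly-A RNA with the TruSeq kit.

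From the deposited counts, TMM-scaled CPM and log2 CPM (prior count 2) were computed with edgeR 4.0.16 in R 4.3.3, and FPKM from CPM and length. Symbols were matched by Ensembl ID for 45143 of 46078 genes, with 99.91% of counts. Tests used filterByExpr, robust dispersions and edgeR's two-sided quasi-likelihood F test. P-values were adjusted over all genes tested (Benjamini-Hochberg, threshold 0.05). They ran on the 2 groups compared or on all 15 libraries. The tests were also run on simulated counts with 200 genes changed by a log2 fold change of 1. Of these, 89.5% were recovered for Mertk KO against Mertk WT (13227 genes). The value was 83.5% for Bai1 Tg pos against Bai1 Tg neg (13583) and 91% for Mertk WT against Bai1 Tg neg (13259). False calls made up 3.76%, 2.91% and 7.61% of the genes called, in that order. Recovery of smaller changes, such as those of the members, was not tested. Share, steadiness, order and likeness are descriptions with no test. Intervals of shares are exact Clopper-Pearson intervals at 95%, and they and the floor of 3 counts cover counting error only. No 2 libraries of a group were alike within sampling noise (lowest chi-square per degree of freedom 5.03).

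Transcript GC content, of the longest GENCODE M21 transcript, was known for 99.8% of the genes of at least 10 CPM. The correction fitted each library's log2 CPM deviations against it by lowess; it was used as an offset in edgeR or subtracted. Copies were searched for with blastn 2.17.0 (at least 95% identity over 150 bases).

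Genes named are the 6 members, Mertk and Adgrb1, the 10 genes of largest share, the 3 nearest genes of each member, of each pathway list the 2 of highest FPKM and those past the threshold, and of marker lists the most abundant; some of these are not reported here. Best1, Krt5, Krt14, Crybb2, Kl, Kcne2, Apoc3, Apoa1, Apob, Plppr3, the copies or overlapping genes and Rom1 fall outside that rule; these were picked once their values were known. The members and lists were chosen with earlier results of these data known. Alternatives were DESeq2 1.42.0, other size factors, no filter, a replicate block, 1 fit of all libraries, rod marker level, tag number or GC content as corrections, and leaving out each library.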

Additional observations from a re-analysis of the deposited data

Results flagged for a closer look

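Ttr in Mertk WT 3 stood at 23371 CPM, apart from the other 3 Mertk WT libraries at 26049 to 26570 CPM. Its gap to the nearest, divided by the range of the group, was 0.837, above Dixon's critical value for 4 samples. In all, 15 sets of 1 gene in 1 group of 4 libraries were examined in this way, and chance sets apart about 1 in 20. The value of Mertk WT 3 lies within the range of Ttr in each of the other groups.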

How the results depend on the processing

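The 5 tested members gave 340 values under the alternatives in the 4 tests, and 0 passed the threshold. The sign changed in 15 of them, for Clu, Ttr, Apoe and, in 1 case, Enpp2. In Mertk KO against Mertk WT, Clu went to -0.047 with the GC correction and ranged from -0.013 to 0.071 on leaving out single libraries. In Bai1 Tg pos against Bai1 Tg neg, Clu was -0.0089 with library totals only, -0.00066 with no filter, -0.024 with rod markers as a covariate and -0.033 to 0.036 on leaving out libraries. Ttr there was 0.0067 with the replicate block, 0.031 with rod markers and -0.098 to 0.073 on leaving out libraries. In Mertk WT against Bai1 Tg neg, Enpp2 was -0.50 with rod markers, a covariate whose levels did not overlap between these groups. Apoe there ranged from -0.059 to 0.18 on leaving out libraries. The cause was not tested.

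Counts of genes past the threshold moved more. In Mertk KO against Mertk WT (30), they were 69 with no filter, 77 in DESeq2, 48 with the GC correction and 16 (without Mertk KO 4) to 31 on leaving out libraries. In Bai1 Tg pos against Bai1 Tg neg (2), they were 85 with no filter, 26 in DESeq2, 4 with the replicate block, 0 with all 15 libraries, 1 with rod markers and 0 (without Bai1 Tg neg 3) to 54 (without Bai1 Tg pos 3). In Mertk WT against Bai1 Tg neg (58), they were 138 with no filter, 249 in DESeq2, 106 with the replicate block, 0 with rod markers and 13 (without Bai1 Tg neg 1) to 89 (without Mertk WT 4). Over the 4 groups (183), they were 287 with no filter, 639 in DESeq2 and 86 (without Bai1 Tg neg 2) to 291 (without Bai1 Tg pos 3). The number of libraries with the full order of members was 9 in FPKM and 0 in CPM. The share of steadier genes moved with the GC correction to 70.8% for Ttr, 48.8% for Clu, 67.3% for Apoe and 72.5% for Ptgds. The mean summed share was 6.20% without mitochondrial and rod marker counts, and 6.00% to 6.09% on leaving out libraries.

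Libraries with the same replicate number are not tied to 1 source by their labels. The first tag number is 21 in Mertk WT 4 and Mertk KO 4 and 17 in the other Mertk libraries. Deviations of same-numbered libraries correlated across genes at -0.11, -0.030, 0.15 and 0.24 for the Mertk groups, the last being that pair. Pairs with different numbers ran from -0.20 (Mertk WT 3 with Mertk KO 4) to 0.25 (Mertk WT 2 with Mertk KO 1). The replicate block therefore served as an alternative only. It changed no call of a member.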
